A study of Homo sapiens with 6 samples.

Results

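Long stretches of the genome in which most of the T-ALL libraries had few ATAC-seq peaks are described here, region by region. The peak lists of all 6 cell lines were merged, and a merged region was a member when its midpoint fell in 1 of 6 stretches of build hg19. These lay on chromosome 1 from 193.4 to 196.5 Mb, chromosome 2 from 122.5 to 127 Mb, chromosome 3 from 75.6 to 86.9 Mb, chromosome 4 from 178.35 to 183.85 Mb, chromosome 11 from 36.8 to 43.31 Mb and chromosome 13 from 67.85 to 70.92 Mb. They held 288 of 40110 merged regions, or 0.718%, on 33.98 Mb. That length was 1.16% of the span from the first to the last region of each chromosome. The stretches were chosen by the numbers of peaks in these same lists: CCRF-CEM held most of the peaks in them and the other lines few or none. The counts of peaks by line are therefore a description, as are all other values from the same lists, and no p-value is given for any of them.

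The study profiled established lines grown from T-ALL, an acute leukaemia that arises from immature T cells. It has 1 library each of CCRF-CEM, TALL-1, MOLT-4, KOPT-K1, HBP-ALL and DND-41. The cells were grown in RPMI-1640 medium with serum, and the labels name no treatment and no control. With 1 library per line there is no replicate error, and a difference between lines cannot be told apart from a difference between preparations. Where a line has no peak, nothing passed the authors' threshold, which does not measure how closed the chromatin is.

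ATAC-seq uses the Tn5 transposase, which cuts DNA where nucleosomes are absent or loosely held, so that promoters and enhancers in use gather tags. Chromatin between such sites is packed more tightly and gathers few tags. Long parts of chromosomes with few genes, or with genes silent in blood cells, usually carry few open sites in T cells. Peak callers such as MACS2 judge each pile of tags against a background taken from the surroundings, which by default cannot fall below a mean for the whole genome. No gene annotation or genome sequence of build hg19 was used here, so regions are given by position only.

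CCRF-CEM had a peak at 197 of the 288 regions, or 68.4% (exact binomial 95% interval 62.7% to 73.7%, counting error only). Over all merged regions it had a peak at 55.4%. HBP-ALL held 65 of the regions (22.6%), against 54.5% of all regions. MOLT-4 held 47 (16.3%, against 47.3%) and DND-41 held 33 (11.5%, against 44.3%). KOPT-K1 held 30 (10.4%, against 44.8%) and TALL-1 held 19 (6.60%, against 40.7%). CCRF-CEM thus stood above its genome-wide share, and the other 5 lines stood below theirs.

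As a share of each line's own regions, the stretches took 0.887% in CCRF-CEM and between 0.116% in TALL-1 and 0.297% in HBP-ALL among the others. In CCRF-CEM the stretches held 5.80 regions with a peak per Mb (exact Poisson 95% interval 5.02 to 6.67), against 7.57 per Mb elsewhere. HBP-ALL had 1.91 per Mb in the stretches (1.48 to 2.44) and 7.498 elsewhere. MOLT-4 had 1.38 and 6.51 per Mb, DND-41 had 0.971 and 6.10, and KOPT-K1 had 0.883 and 6.17. TALL-1 had the fewest, 0.559 per Mb in the stretches (0.337 to 0.873) and 5.61 elsewhere. The ratio of the density in the stretches to that elsewhere was 0.766 in CCRF-CEM. It was 0.0997 to 0.255 in the other 5 lines. The stretches were thus poor in peaks in those 5 libraries and much less so in CCRF-CEM. With regions held by every line left out on both sides, an alternative added after seeing the data, the ratio was 1.27 in CCRF-CEM and 0.409 in HBP-ALL, the next line.

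**Figure D1:**
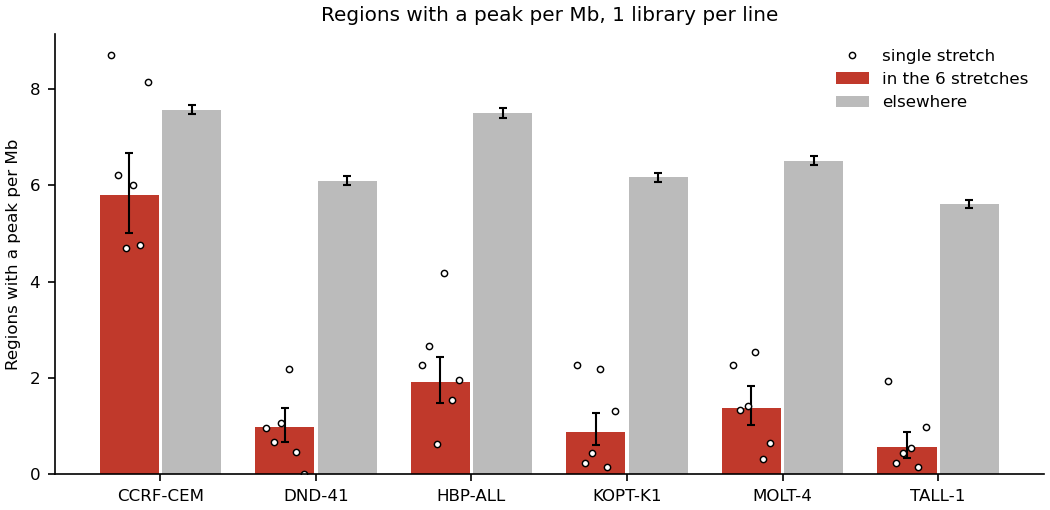
Regions with a peak per Mb in the 6 stretches (red bars) and in the rest of chromosomes 1 to 22 and X (grey bars), for each cell line, with exact Poisson 95% intervals that cover counting error only. Open circles are single stretches. CCRF-CEM had 5.80 per Mb in the stretches, and the other lines had 0.559 to 1.91.

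Most of the regions were seen in a single library. Of the 288, 230 (79.9%) held a peak in 1 line, against 43.2% of all merged regions. Another 34 held peaks in 2 lines (11.8%, against 13.6%) and 14 in 3 lines (4.86%, against 8.02%). Only 3 held peaks in 4 lines (1.04%, against 6.15%) and 3 in 5 lines (1.04%, against 6.53%). A peak in every line was found at 4 (1.39%), against 22.6% of all merged regions. CCRF-CEM alone accounted for 151 of the 288 regions (52.4%), against 16.0% of all merged regions. HBP-ALL alone accounted for 39 (13.5%, against 11.6%). MOLT-4 alone had 14 (4.86%, against 4.55%), KOPT-K1 alone 12 (4.17%, against 3.73%), DND-41 alone 9 (3.13%, against 3.56%) and TALL-1 alone 5 (1.74%, against 3.71%).

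Within each library the share of unshared regions was larger in the stretches than elsewhere. In CCRF-CEM 76.6% of its regions in the stretches were its own alone (70.1% to 82.4%), against 28.5% elsewhere. For HBP-ALL the share was 60.0% (47.1% to 72.0%), against 21.2% elsewhere. The remaining lines had shares of 26.3% to 40.0% in the stretches, against 8.002% to 9.57% elsewhere. When another line did have a peak there, CCRF-CEM often had one too. It held 18 of the 33 DND-41 regions, 11 of the 19 TALL-1 regions, 24 of the 47 MOLT-4 regions and 13 of the 30 KOPT-K1 regions. Of the 65 HBP-ALL regions it held 20. Elsewhere these shares were higher, from 58.0% of HBP-ALL regions to 70.2% of DND-41 regions. The other 5 lines matched each other less often in the stretches as well: DND-41 and KOPT-K1 had 8 regions in common, which was 24.2% of the DND-41 regions there and 26.7% of the KOPT-K1 regions. Elsewhere the same pair shared 75.6% and 74.7%.

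**Figure D2:**
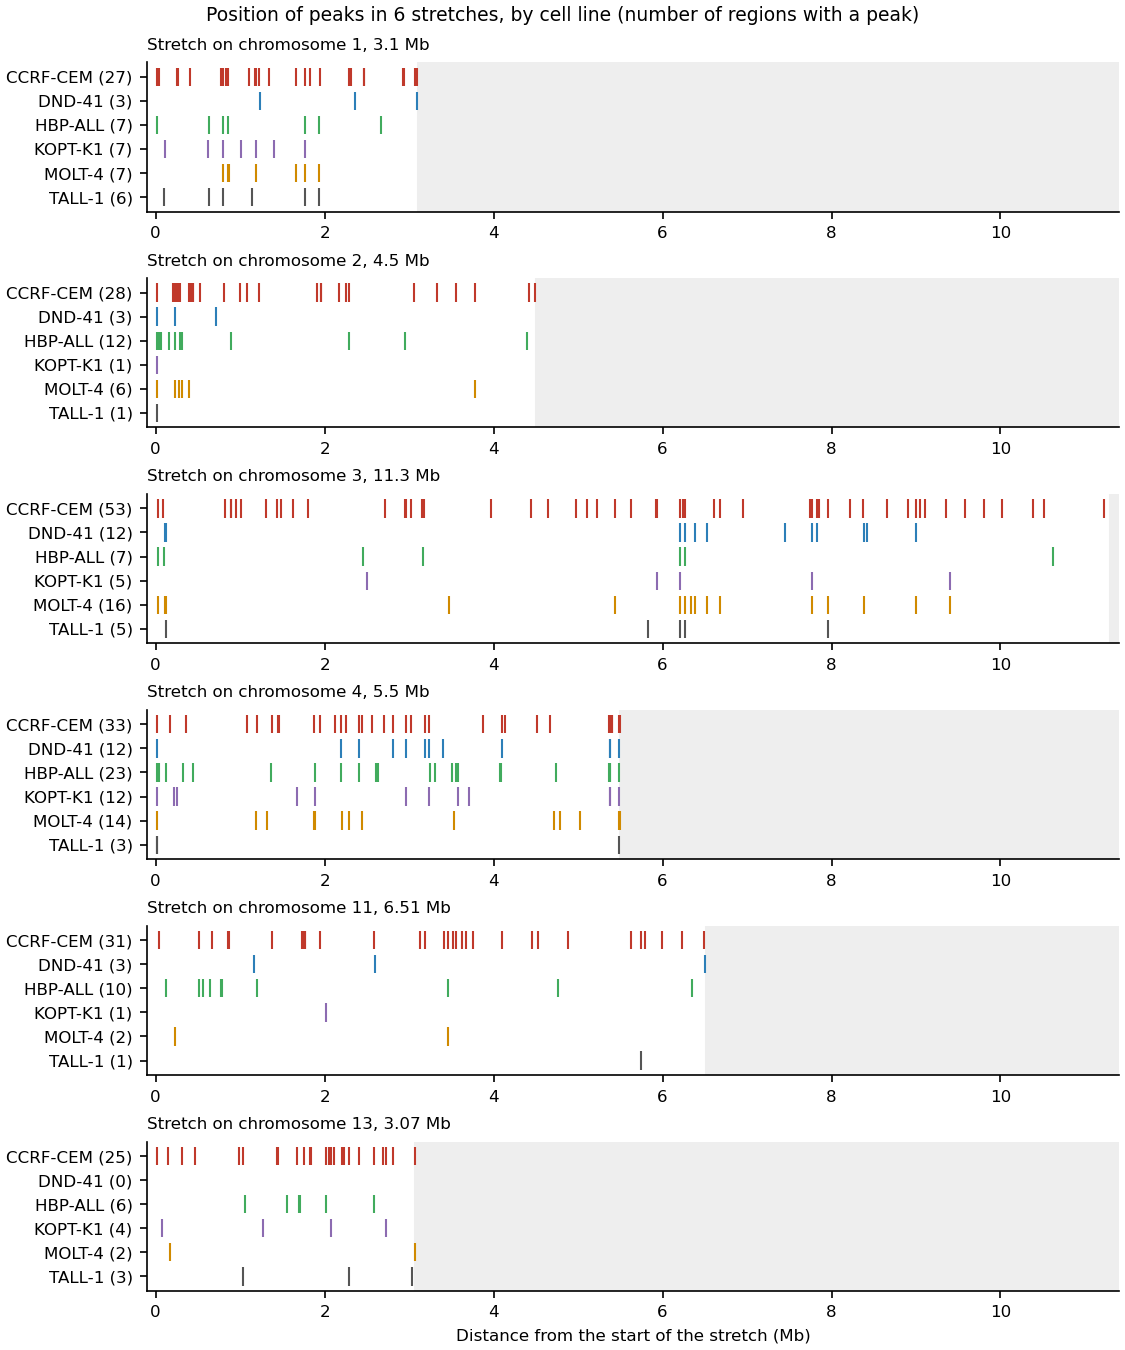
Position of each peak in the 6 stretches, as distance from the start of the stretch in Mb, with 1 row per cell line and the number of regions with a peak in brackets. Grey marks the end of a stretch. CCRF-CEM peaks run along the whole of each stretch, and the other lines leave parts of several Mb empty.

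The stretch on chromosome 1 was the densest. It held 38 regions on 3.10 Mb, or 12.3 per Mb, against 18.3 per Mb in the 2 Mb on each side. CCRF-CEM had 27 of them, HBP-ALL, KOPT-K1 and MOLT-4 had 7 each, TALL-1 had 6 and DND-41 had 3. Its strongest CCRF-CEM-only region, at chr1:194504214-194504859, had a CCRF-CEM pileup of 138 tags over a local background of 6.76, where the pileup counts the tags that overlap the summit. The −log10 p there, as the authors give it, was 127, and the nearest peak of another line lay 40635 bp away in TALL-1. A second CCRF-CEM-only region, at chr1:193654965-193655889, had a pileup of 74 over 4.93.

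A pair of regions in this stretch was held by 5 lines, and DND-41 was the line without a call at both. At chr1:194195022-194195548 the pileup was 86 tags in CCRF-CEM, 27 in TALL-1, 20 in MOLT-4, 29 in KOPT-K1 and 21 in HBP-ALL. At chr1:195164371-195165124 it was 35 in CCRF-CEM, 16 in TALL-1, 42 in MOLT-4, 28 in KOPT-K1 and 25 in HBP-ALL. In raw tags CCRF-CEM was highest at the first of these and MOLT-4 at the other. As multiples of the lowest background in each list, a scale described further on, CCRF-CEM was also the higher at the other, at 50.5 against 45.9 in MOLT-4. Regions without a CCRF-CEM call occurred too: chr1:195334883-195335237 had 27 tags in HBP-ALL, 25 in MOLT-4 and 18 in TALL-1, with a CCRF-CEM peak 10028 bp away. At chr1:194025249-194025771 there were 12 tags in HBP-ALL, 18 in KOPT-K1 and 25 in TALL-1. The strongest region of this stretch without a CCRF-CEM call, chr1:196067061-196067499, was held by HBP-ALL alone, with 52 tags over 3.48.

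On chromosome 2 the regions crowded at the lower end. Of the 39 regions, 18 lay within the first 500 kb of the 4.50 Mb stretch. These included 11 of the 28 CCRF-CEM regions, 8 of the 12 HBP-ALL regions and 5 of the 6 in MOLT-4, and 2 of the 3 in DND-41. KOPT-K1 and TALL-1 each had 1 region in the whole stretch, which lay there as well. That region, chr2:122512704-122513492, held a peak in every line and lay 13.1 kb from the border. Its pileup was 45 tags in CCRF-CEM, 35 in TALL-1, 33 in MOLT-4, 48 in KOPT-K1, 39 in HBP-ALL and 61 in DND-41. DND-41 was at the top in raw tags. As multiples of the lowest background in each list CCRF-CEM was at the top with 64.9, and DND-41 had 53.5 and TALL-1, the lowest, 25.3.

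Beyond it KOPT-K1 and TALL-1 had no call for 4487 kb, which was 99.7% of the stretch. CCRF-CEM had no empty part longer than 776 kb. Its strongest region of its own on chromosome 2, chr2:124670707-124671336, had 62 tags at its summit over a background of 4.04, and the nearest peak of another line lay 113341 bp away in HBP-ALL. The next, chr2:122756575-122757305, had a pileup of 41 over 3.45. HBP-ALL had an unshared peak at chr2:122553721-122554514 with 44 tags over 4.10. It shared chr2:122809357-122809726, with 19 tags, with MOLT-4 at 10 tags.

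The stretch on chromosome 3 was the longest and the sparsest. Its 11.3 Mb held 69 regions, or 6.11 per Mb, and the parts on each side were sparse as well, with 9 per Mb. CCRF-CEM had 53 of the 69, followed by MOLT-4 with 16 and DND-41 with 12, HBP-ALL with 7, and KOPT-K1 and TALL-1 with 5 each. Its CCRF-CEM peaks were also the lowest of the 6 stretches, with a median pileup of 12 tags. The strongest CCRF-CEM-only regions there reached 25 tags at chr3:83819096-83819350 and 24 tags at chr3:85410003-85410350. Regions without a CCRF-CEM call were led by chr3:75721067-75721868, with 55 tags in DND-41, 28 in MOLT-4 and 20 in TALL-1. The next, chr3:85007774-85008455, had 35 tags in MOLT-4 and 11 in KOPT-K1.

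One region on chromosome 3, chr3:81810122-81811114, held a peak in every line. Its pileup was 162 tags in CCRF-CEM, 68 in TALL-1, 47 in MOLT-4, 51 in KOPT-K1, 51 in HBP-ALL and 122 in DND-41. CCRF-CEM and DND-41 stood above the other lines there. It was the strongest peak in the stretches for DND-41 and TALL-1, by the authors' −log10 p of 85.6 and 49.1. A region 54.7 kb further on, chr3:81865806-81867105, was held by all lines but KOPT-K1, with 40 tags in CCRF-CEM, 25 in TALL-1, 9 in MOLT-4, 11 in HBP-ALL and 47 in DND-41. This pair also bounded the longest empty parts of 2 lines, a split chosen after its values were seen. DND-41 had no call on the 6.09 Mb before it, and HBP-ALL had none on the 4.36 Mb after it. CCRF-CEM regions were spread to both sides of the region held by every line, 28 before it and 24 after it, whereas DND-41 had 2 before and 9 after.

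Chromosome 4 was the exception in the share of CCRF-CEM. There CCRF-CEM had 33 of 65 regions, or 50.8% (38.1% to 63.4%), against 70.5% to 76.8% in the other 5 stretches. HBP-ALL had 23, its largest number in any stretch and 14 of them unshared. MOLT-4 had 14, DND-41 and KOPT-K1 had 12 each and TALL-1 had 3. Both ends of the stretch had a region held by every line. At chr4:178362932-178364157 the pileup was 169 tags in CCRF-CEM, 70 in TALL-1, 71 in MOLT-4, 108 in KOPT-K1, 81 in HBP-ALL and 107 in DND-41. At chr4:183837983-183839267 it was 71 in CCRF-CEM, 62 in TALL-1, 57 in MOLT-4, 80 in KOPT-K1, 60 in HBP-ALL and 81 in DND-41. CCRF-CEM was highest at the lower end in raw tags, and at the upper end it lay within the range of the other lines. As multiples of the lowest background it was highest at both, with 244 at the lower end, against at most 101 in another line, and 102 at the upper end, against at most 74.95.

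Between these ends TALL-1 had no call for 5474 kb. Its remaining region, chr4:178362317-178362545, adjoined the region at the lower end and had 23 tags over a high background of 7.25. CCRF-CEM-only regions in between reached 29 tags over 1.51 at chr4:179553541-179553798 and 30 tags over 1.69 at chr4:179432654-179433112. In raw tags, unshared peaks of other lines stood higher. HBP-ALL had 49 tags over 2.83 at chr4:182429006-182429493, and MOLT-4 had 31 over 2.49 at chr4:183369796-183370331. As multiples of the lowest background, the CCRF-CEM region of 30 tags was at 43.3, against 40.0 and 33.8 for these. The widest of all 288 regions was a single HBP-ALL interval of 1414 bp at chr4:180979183-180980596. It was low, with 19 tags over a background of 3.32. Of the regions without a CCRF-CEM call, chr4:180239154-180239512 had 23 tags in HBP-ALL, 15 in KOPT-K1 and 17 in MOLT-4. Another, chr4:183727561-183727915, had 16 tags in DND-41, 22 in HBP-ALL and 15 in KOPT-K1, with a CCRF-CEM peak 2310 bp away.

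The stretch on chromosome 11 had no region held by every line, although such regions lay just outside both of its borders. It held 44 regions on 6.51 Mb, of which 41 had a peak in 1 line only. CCRF-CEM had 31, HBP-ALL 10, DND-41 3, MOLT-4 2, and KOPT-K1 and TALL-1 had 1 each. CCRF-CEM alone had 64 tags over 4.26 at chr11:41330490-41331107 and 51 tags over 3.07 at chr11:40422672-40423252. The strongest region without a CCRF-CEM call, chr11:37573665-37574402, was an HBP-ALL peak of 26 tags. DND-41 had an unshared one of 21 tags at chr11:39392566-39393063. The longest part of any stretch with no region in any line, 747 kb from 41681920 to 42429017, lay on chromosome 11.

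Chromosome 13 had the shortest stretch, 3.07 Mb with 33 regions, and DND-41 had no call in it. It was no sparser than its sides, with 10.7 regions per Mb against 10.0 in the 2 Mb on each side. For CCRF-CEM these were 8.14 and 6 per Mb. CCRF-CEM had 25 regions, HBP-ALL 6, KOPT-K1 4, TALL-1 3 and MOLT-4 2. The 2 MOLT-4 regions lay near opposite ends, 2899 kb apart. The strongest CCRF-CEM-only regions lay close together, with 66 tags over 4.10 at chr13:69905453-69905870 and 64 tags over 4.20 at chr13:69964037-69964646. HBP-ALL had its own strong pair lower on the stretch, with 63 tags over 5.11 at chr13:69544878-69545367 and 36 tags over 3.02 at chr13:69562355-69562903. CCRF-CEM had no call at either, and its nearest peaks were 26189 and 42972 bp away.

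Neighbouring CCRF-CEM regions in the stretches had a median distance of 115 kb (exact 95% interval of the median 84.4 to 147 kb over 191 distances), against 63.1 kb elsewhere. The distances ran from 0.57 to 921 kb. In the other lines the median distance was 191 kb in MOLT-4 (n = 41), 198 kb in HBP-ALL (n = 59), 271 kb in DND-41 (n = 28), 306 kb in KOPT-K1 (n = 24) and 524 kb in TALL-1 (n = 13). Elsewhere the medians of these 5 lines were 54.8 to 60.8 kb, slightly below that of CCRF-CEM. The order of CCRF-CEM against the rest was thus turned round in the stretches. Distances under 10 kb made up 7.33% in CCRF-CEM, against 10.4% elsewhere, and 3.57% to 7.69% in the other lines, against 9.92% to 11.8% elsewhere. In the stretches these shares rest on 14 distances in CCRF-CEM and on only 1 to 3 in each other line. The coefficient of variation of the distances was 1.09 in CCRF-CEM and 1.15 to 1.67 in the other lines.

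Empty parts showed the same contrast. The longest part without a CCRF-CEM call, borders counted, was 920 kb on chromosome 3. For the other lines it was 6.09 Mb in DND-41, 5.75 Mb in TALL-1, 4.50 Mb in KOPT-K1, 4.36 Mb in HBP-ALL and 3.38 Mb in MOLT-4. Pooled over the stretches, peaks were denser towards the borders. The outer 500 kb at both ends of each stretch made up 17.7% of the length and held 23.9% of the CCRF-CEM regions (18.1% to 30.4%). They held 38.5% of the HBP-ALL regions (26.7% to 51.4%) and 30.3% to 36.8% of those of the other 4 lines. Away from the borders CCRF-CEM had 5.36 regions per Mb, and the other lines had 0.429 to 1.43 per Mb. The stretches differed in this. On chromosome 2 CCRF-CEM had 11 of its 28 regions in the first 500 kb and 2 in the last. On chromosome 3 it had 2 of 53 in the first and 1 in the last, and on chromosome 11 it had 1 of 31 and 2, so the pair of longest stretches showed no such excess in CCRF-CEM. On chromosome 4, with 5.50 Mb, it had 3 of 33 and 6. The numbers were 6 of 27 and 4 on the 3.10 Mb of chromosome 1, and 4 of 25 and 5 on the 3.07 Mb of chromosome 13. Outer parts make up more of a short stretch, so the pooled share also depends on how dense the short stretches are.

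**Figure D3:**
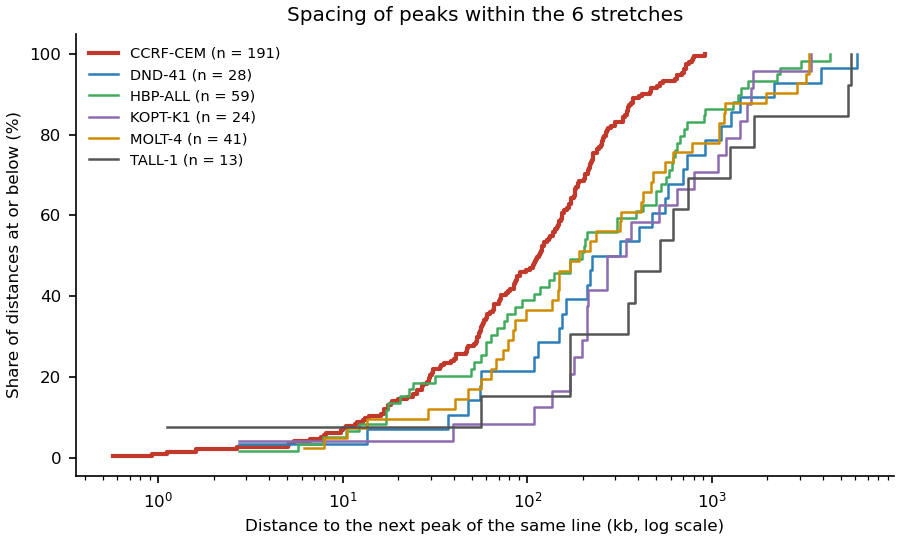
Cumulative share of distances between neighbouring regions of the same line within the 6 stretches, in kb on a log scale, with the number of distances in brackets. The CCRF-CEM curve lies left of the others over most of its range and ends at 921 kb.

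At the 12 borders, the nearest region inside lay 3.46 to 78.4 kb from the border and the nearest outside 0.23 to 171 kb. Of the regions just inside, 10 had a CCRF-CEM peak, with pileups of 7 to 122 tags, and 8 had a peak of another line, with 9 to 61 tags. Of those just outside, 6 had a CCRF-CEM peak, with 12 to 107 tags, and 10 had a peak of another line, with 8 to 70 tags. The closest to a border was chr13:67849523-67850021, whose midpoint missed the stretch by 0.23 kb. It had 91 tags in CCRF-CEM, 11 in DND-41 and 32 in MOLT-4.

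Over all peaks together, the median width in the stretches was lower than elsewhere in every line. The median width was 333 bp in CCRF-CEM, against 437 bp elsewhere. In the other lines it was 411 bp in DND-41, against 531 bp elsewhere, and 370 bp in HBP-ALL, against 491 bp. KOPT-K1 peaks had a median of 357 bp, against 507 bp elsewhere, MOLT-4 peaks 339 bp, against 509 bp, and TALL-1 peaks 353 bp, against 519 bp. Unshared peaks, the narrowest class elsewhere in every line, made up more of the peaks in the stretches. Split by sharing, the median width was not lower throughout. For unshared peaks it was 321 bp in CCRF-CEM, against 320 bp elsewhere, and 379 bp in HBP-ALL, against 307 bp. The remaining lines had 238 to 284 bp, against 282 to 293 bp. At regions held by 2 to 5 lines it was higher in DND-41 and KOPT-K1 and lower in the rest. At regions held by every line, most of them beside a border in the stretches, it was 804 to 1012.5 bp, against 596 to 705 bp. Intervals with several summits were 3 of 197 in CCRF-CEM (1.52%, against 9.25% elsewhere) and 3.33% to 14.9% in the other lines, against 15.0% to 19.9% elsewhere. In all, CCRF-CEM peaks covered 76.2 kb of the stretches, HBP-ALL peaks 28.1 kb and TALL-1 peaks 9.06 kb. Among the merged regions the 4 held by every line were the widest as a class, with a median of 1109.5 bp, and the 230 held by 1 line had a median of 314.5 bp. Merging widens regions with several lines by construction.

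Taken over all peaks, the median summit in the stretches was lower than elsewhere in every line. The median pileup was 15 tags in CCRF-CEM, against 20 elsewhere, 17 in DND-41, against 26, and 16 in HBP-ALL, against 24. KOPT-K1 had 14.5, against 25, MOLT-4 had 15, against 23, and TALL-1 had 20, against 29. The lists do not give depth, so pileups were also divided by the lowest background of the same list. These lowest backgrounds were 0.694 tags in CCRF-CEM, 0.916 in MOLT-4, 1.07 in KOPT-K1, 1.14 in DND-41, 1.23 in HBP-ALL and 1.38 in TALL-1. On this scale the median summit in the stretches stood at 21.6 in CCRF-CEM, against 28.8 elsewhere. The other lines had 13.1 to 16.4 in the stretches, against 19.6 to 25.1 elsewhere.

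Split by how widely peaks were shared, the order was turned round in all lines only at the 4 regions held by every line. Of these, the regions on chromosomes 2 and 4 lay beside a border of their stretch, and only the region on chromosome 3 lay far inside. At the 4 regions held by every line the median pileup was 116.5 tags in CCRF-CEM, against 31 at such regions elsewhere, 94 in DND-41, against 40, and 65.5 in KOPT-K1, against 36. TALL-1 had 65, against 44, HBP-ALL 55.5, against 39, and MOLT-4 52, against 36. CCRF-CEM peaks at regions held by 2 to 5 lines had a median of 18 tags in the stretches and elsewhere. In the other lines such peaks had medians of 15 to 17 tags, against 16 to 20 elsewhere. Unshared peaks of the other lines had medians of 10 to 15 tags, against 12 to 14 elsewhere. The unshared CCRF-CEM peaks in the stretches resembled those it had elsewhere. The 151 in the stretches had a median width of 321 bp and a median pileup of 14 tags, and the 6269 elsewhere had 320 bp and 13 tags. Strong peaks of CCRF-CEM and HBP-ALL were more often unshared in the stretches than elsewhere. The stretches were chosen by which lines had peaks there, so the choice itself raises such a share in CCRF-CEM. CCRF-CEM had 32 peaks in the stretches at or above 31 tags, which is its median at regions held by every line elsewhere, and 16 of these (50%) were unshared. Elsewhere 8.18% of its 6810 peaks of that height were unshared. HBP-ALL had 9 such peaks by its own median of 39 tags, and 4 were unshared (44.4%, against 1.67% elsewhere). None of the 3 to 6 such peaks of the remaining 4 lines was unshared, against 0.239% to 0.439% elsewhere.

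Taken over all peaks, the local background in the stretches was lower than elsewhere in every line, by its median. In CCRF-CEM it was seldom at its lowest value. The median background was 1.28 tags in CCRF-CEM, against 1.64 elsewhere, or 1.84 and 2.36 times the lowest in its list. In the other lines the median was 1.48 times the lowest in HBP-ALL to 1.74 times in KOPT-K1, against 2.105 to 2.67 times elsewhere. Split by sharing, unshared CCRF-CEM peaks had 1.75 times the lowest, against 1.63 elsewhere. CCRF-CEM peaks held by 2 to 5 lines had 2.12 in both. Unshared peaks of the other lines had 1.26 to 1.49, against 1.37 to 1.49 elsewhere. Their peaks held by 2 to 5 lines had 1.38 to 1.89, against 1.77 to 1.98. At regions held by every line, most of them beside a border, both the pileup and the background were higher in the stretches. The background was 12.5 times the lowest in CCRF-CEM, against 3.48, and 4.07 to 7.35 in the others, against 3.11 to 3.81. The notes do not say if tags of the peak itself enter the background, so this need not describe the surroundings. Peaks whose background lay within 1% of the lowest were 3 of 197 in CCRF-CEM (1.52%), against 7.84% elsewhere. In the other 5 lines the shares were turned round: 8.51% to 15.8% of peaks in the stretches, against 2.83% to 6.37% elsewhere. These rest on only 3 to 7 peaks per line. Among the stretches the CCRF-CEM median background ran from 1.17 tags on chromosome 3 to 1.77 on chromosome 1. The highest single CCRF-CEM background, 11.6 tags, belonged to the region held by every line on chromosome 3.

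**Figure D4:**
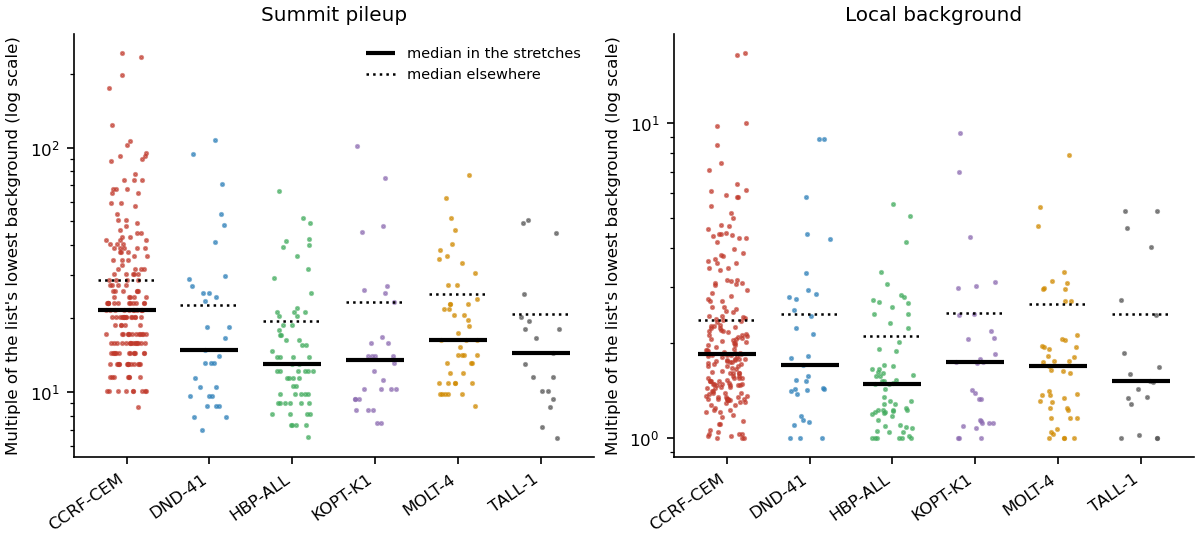
Summit pileup (left) and local background (right) of each peak in the 6 stretches, as multiples of the lowest background in the same list, on log scales. Solid bars are medians in the stretches and dotted bars medians elsewhere. CCRF-CEM summits had a median of 21.6, and those of the other lines 13.1 to 16.4.

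At regions that CCRF-CEM shared with another line, its summit was usually the higher one on the scale of lowest backgrounds, in the stretches and elsewhere. The log2 ratio of CCRF-CEM over HBP-ALL had a median of 1.80 at 20 shared regions in the stretches, against 0.63 at 12638 elsewhere. It was above 0 at all 20 shared regions in the stretches, and at 78.9% elsewhere. CCRF-CEM was the higher at 18 of 18 regions shared with DND-41, 11 of 11 with TALL-1, 12 of 13 with KOPT-K1 and 20 of 24 with MOLT-4, against 65.7% to 77.6% elsewhere. Over TALL-1 the median was 1.68 at 11 regions, against 0.61 elsewhere, and over KOPT-K1 it was 1.27 at 13 regions, against 0.49. Over DND-41 it was 1.11 at 18 regions, against 0.48, and over MOLT-4 it was 1.11 at 24 regions, against 0.38. Most of these regions elsewhere were held by every line, unlike those in the stretches. At regions held by 2 to 5 lines the median was 1.80 over HBP-ALL, against 0.73 elsewhere. Over TALL-1 it was then 1.68, against 0.85, and over KOPT-K1 1.54, against 0.64. Over DND-41 it was 1.11, against 0.72, and over MOLT-4 1.11, against 0.61. Raised ratios were found beyond the stretches too: outside the stretches, in 1-Mb windows without a region held by every line, the median was 1.04 over DND-41, 0.99 over MOLT-4, 0.92 over KOPT-K1, 1.08 over HBP-ALL and 1.44 over TALL-1. The few regions are all drawn from stretches picked for CCRF-CEM peaks, and lowest backgrounds stand in for depths that the lists do not give.

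The excess of CCRF-CEM peaks in windows with few shared regions was not confined to these stretches. Among the 1-Mb windows centred in the stretches, 30 had no region held by every line. They held 5.47 CCRF-CEM regions on average, with 1 to 11 in each, and 1.5 in HBP-ALL, 1.10 in MOLT-4, 0.833 in DND-41, 0.667 in KOPT-K1 and 0.400 in TALL-1. Outside the stretches 766 windows with at least 1 region had none held by every line. Those averaged 3.66 CCRF-CEM regions, 2.29 in HBP-ALL, 1.57 in MOLT-4, 1.41 in DND-41, 1.36 in KOPT-K1 and 0.826 in TALL-1. CCRF-CEM thus had 3.64 times the next line in the stretches and 1.60 times in such windows elsewhere. It was ahead of every other line in 27 of the 30 windows (90.0%) and in 47.7% of the 766.

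Outside the stretches, CCRF-CEM still led in windows with 1 to 2 shared regions, and no longer led in those with 3 or more. Each region held by every line adds 1 to the count of every line. The classes thus bring the lines closer to each other by construction. Elsewhere in the genome, windows with 1 to 2 regions held by every line averaged 6.30 CCRF-CEM regions, and 5.44 in HBP-ALL, the next line. With 3 to 5 such regions the averages were 9.004 in CCRF-CEM and 9.39 in HBP-ALL. With over 5 they were 13.8 in CCRF-CEM and 13.7 to 15.9 in the other lines. TALL-1 averaged 0.826 regions in windows without a shared region and 14.1 in the richest class, where over 5 come from the class itself. Of the 30 windows in the stretches TALL-1 had no call in 23, DND-41 and KOPT-K1 in 18 each, MOLT-4 in 13 and HBP-ALL in 10. CCRF-CEM had at least 1 call in each.

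**Figure D5:**
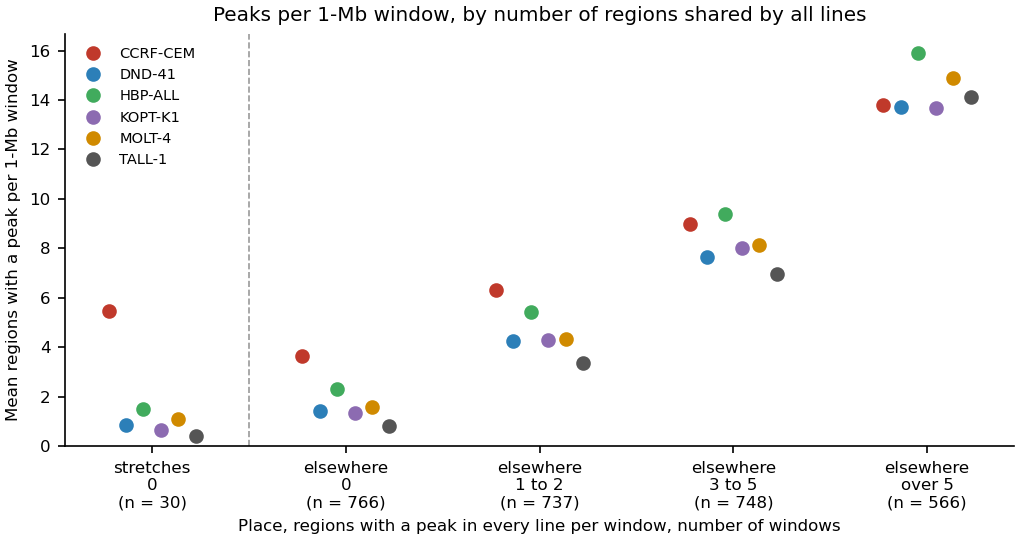
Mean number of regions with a peak per 1-Mb window, for each cell line, in windows classed by how many of their regions held a peak in every line. Left of the dashed line are the 30 windows of the stretches with no such region, where CCRF-CEM averaged 5.47. To its right are the windows outside the stretches that hold at least 1 region, where CCRF-CEM led the class without shared regions at 3.66 and did not lead the richest class.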

How the data were processed

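ATAC-seq peaks of 6 T-ALL cell lines, 1 library each, were taken from the lists that the authors deposited in build hg19. Per the submitters' processing notes, the tools were MACS2 2.1.1.2016030, Bowtie2, SAMtools and Picard. The notes used here give no settings, no read depth and no word on moving reads to the transposase cut. Each list covers 1 library and has no header. Each summit has a score, a fold over the local background, a −log10 p and a −log10 q, as the authors deposited them. The deposited score is the −log10 p times 10 without its decimals, except in 7 of 139886 lines. Every deposited list starts just above a −log10 p of 5.

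Summits sharing an interval were joined under the strongest. Chromosomes 1 to 22 and X were used. Intervals of different lines were merged where they overlapped by 1 bp or more. Pileup t and background c were recovered from the authors' fold, as (t + 1) / (c + 1), together with the upper Poisson tail beyond t. Up to 1000 tags were tried, within 0.001 of the −log10 p, and 99.8% of summits per library had a single match. Summits without one have no pileup here; every peak in the stretches has one. Shares have Clopper-Pearson intervals, densities exact Poisson intervals and medians order-statistic intervals, which cover counting or the spread between regions only. The steps were tested on simulated data, with 100% of 2774 simulated summits given the right pileup. The members and lists were chosen with earlier results of these data known. Regions named are, in each stretch, the 2 strongest CCRF-CEM-only regions, up to 2 held by every line and up to 2 without a CCRF-CEM peak. CCRF-CEM-only regions were ranked by −log10 p. Regions without a CCRF-CEM peak were ranked by number of lines before −log10 p, so that rule does not always name the strongest. The widest region, the longest empty part, the strongest region of each other line and the regions next to each border were added to these by rule. Regions held by 5 lines, the TALL-1 region beside the lower end on chromosome 4 and the split on chromosome 3 were chosen after their values were seen. So were the unshared HBP-ALL region named on chromosome 1 and the unshared HBP-ALL and MOLT-4 regions of 49 and 31 tags on chromosome 4. Values were computed with numpy 2.4.6, scipy 1.17.1 and pandas 2.3.3 in Python 3.11.15 and drawn with matplotlib 3.10.9.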

Additional observations from a re-analysis of the deposited data

Results flagged for a closer look

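Dixon's gap ratio over the 6 lines was computed for 9 measures of the stretches, at the high and the low end, with 0.625 as the critical value. It passed this value at 2 regions held by every line, both times with CCRF-CEM highest. This is a description only, because the stretches were chosen for CCRF-CEM peaks. The scale also divides by the lowest background of each list, which was smallest in CCRF-CEM. Elsewhere CCRF-CEM was likewise the higher on it at 65.7% to 78.9% of regions shared with another line. At chr4:178362932-178364157 the CCRF-CEM pileup was 244 times the lowest background of its list, and the next line stood at 101 times (gap ratio 0.738). At chr3:81810122-81811114 it was 234 times, and the next line stood at 107 times (0.659). At the other 2 regions held by every line CCRF-CEM was also highest on this scale, at 102 and 64.9 times, within the gap allowed. In raw tags it was highest only at the first 2. Chance flags about 5% of such sets over both ends together, and the 6 lines are not replicates.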

How the results depend on the processing

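CCRF-CEM had the most regions in the stretches and the highest ratio of density there to elsewhere under all 14 alternatives run; the stretches were chosen for its peaks, so this order is no sign of stability, and mean summits and windows of 2 Mb cannot alter these counts. These were a −log10 p of at least 10, equal numbers of the strongest peaks, an overlap of 100 bp, borders moved by 0.1 Mb either way, mean summits, windows of 2 Mb and, added after seeing the data, each stretch left out and regions held by every line left out. Its lead over the next line, HBP-ALL each time, ran from 2.48 times without chromosome 3 to 3.90 times without chromosome 4. With a −log10 p of at least 10, 172 regions remained, 122 of them in CCRF-CEM, and its density ratio was 0.639. With equal numbers of peaks, 191 regions remained, 122 in CCRF-CEM and 93 in it alone, with a ratio of 0.639. Either cut gave CCRF-CEM a median distance of 166 kb, width of 386 bp, pileup of 21 tags and background of 1.48 tags, since weak peaks were removed by construction. Without regions held by every line its ratio was 1.27, since the comparison then drops 9053 regions, 4 of them in the stretches, by construction. Windows of 2 Mb raised the CCRF-CEM lead outside the stretches to 1.83 times. Of the 108 values for CCRF-CEM and for all regions 16 moved, and of the 390 values for other lines 42 moved. Borders moved outwards gave DND-41 52 regions (33 as reported), a ratio of 0.243 (0.159) and a median distance of 111 kb (271 kb), and TALL-1 32 regions (19) and a ratio of 0.162 (0.0997). A −log10 p of at least 10 left 39 regions in HBP-ALL, 29 in MOLT-4, 18 in DND-41, 12 in KOPT-K1 and 10 in TALL-1, of which 24 in HBP-ALL, 4 in DND-41, 2 in KOPT-K1 and 1 in TALL-1 were unshared. It gave KOPT-K1 a ratio of 0.0768 (0.143), and median pileups of 30 tags in DND-41 (17) and 27.5 in KOPT-K1 (14.5). Without chromosome 4, HBP-ALL had 42 regions, 25 of them unshared, DND-41 21 and KOPT-K1 18, with 7 unshared in KOPT-K1 and 6 in MOLT-4. Without chromosome 3, DND-41 had 21 and MOLT-4 31. No paired analysis was possible because each line has 1 library. Depth is unknown, so no limit can be set on signal where a line has no peak.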
